A study of Homo sapiens with 6 samples.

Results

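The histone and DNA modifying enzymes of HMC3 cells were followed as 55 of the 27469 genes in a table of RNA counts. They were chosen by symbol: 18 lysine demethylases named KDM, 8 lysine methyltransferases named KMT, 11 zinc-dependent histone deacetylases (HDAC), 7 sirtuins (SIRT), 4 genes of the DNA methyltransferase family (DNMT), 3 TET dioxygenases, and EZH1, EZH2, EED and SUZ12, the core of Polycomb repressive complex 2 (PRC2). Antisense genes and the Y-linked member of the KDM family were left out. HMC3 is an immortalised human line that the labels call microglia. The 3 Control libraries came from HMC3 labelled only as control, and the 3 IL-33 libraries from HMC3 given interleukin-33 for 24 h. The labels give no dose and no vehicle, and all 6 libraries came from this 1 line. Nothing in the labels says that libraries of a group came from separate cultures, so the p-values reflect only how these libraries vary, and that variation may be technical.

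These enzymes add and remove the chemical marks that set how readily DNA is read in chromatin. KMT enzymes put methyl groups on lysines of histones and KDM enzymes take them off, PRC2 writes a repressive methyl mark on histone H3, HDAC enzymes and sirtuins remove acetyl and other acyl groups, DNMT enzymes methylate cytosine, and TET enzymes oxidise the methyl group. In macrophages and microglia the H3K27 demethylase KDM6B is known as an early inflammatory gene, and HDAC3 and PRC2 are known regulators of inflammatory genes. IL-33 is a cytokine of the IL-1 family that signals through the receptor encoded by IL1RL1.

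Libraries held between 5739947 and 10217529 counts, and Control 3 was the shallowest. Levels are given in CPM, the counts of a gene for each 1e6 counts of its library after TMM scaling of library sizes. Libraries were made from tags near the 3′ end, so that counts do not grow with transcript length. How fully the 3′ end of each gene was counted was not tested, so levels of different genes compare only roughly. Control 3 also stood apart from the other 5 libraries over all genes, at 54.96 on a first principal component (35.4% of the variance) on which the others lay between -18.04 and 0.86. Of 12 microglia and macrophage markers, 6 had 0 counts in all 6 libraries (ITGAM, P2RY12, TMEM119, CX3CR1, SPI1 and TYROBP) and the summed level of the list was 3.62 to 8.01 CPM, and CD68, CD14, TREM2, CSF1R, AIF1 and PTPRC, at 0 to 49 counts a library, made up all of it. For 10 fibroblast and mesenchymal markers the sum was 6744 to 8198 CPM, carried mostly by FN1, VIM, TAGLN and COL1A1, while COL3A1, ACTA2 and LUM had 0 counts in all 6 libraries. The cells are called HMC3 here. Summed markers of astrocytes were 0.881 to 3.56 CPM, of neurons 24.0 to 37.8, of oligodendrocytes 5.06 to 7.23, and 4 lymphocyte markers had 0 counts in every library. TUBB3 (177 to 311 counts a library) carried most of the neuron sum, and MBP (35 to 70 counts) most of the oligodendrocyte sum. IL33 itself had 0 counts in every library, and IL1RL1 was seen only in Control 3 (3 counts) and IL-33 2 (8 counts).

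The PRC2 genes EZH2, EZH1 and SUZ12 are those whose levels and ratios are described in most detail here, so the 250 bases upstream of their start are shown first. The sequences are RefSeq's on GRCh38.p14, read 5′ to 3′ on the strand of the gene, with the GC box GGGCGG of Sp1-type factors in capitals on either strand, where it reads GGGCGG or CCGCCC and where neighbouring matches may overlap. EZH2 lies on the minus strand with its window at chr7:148884292-148884541, EZH1 on the minus strand at chr17:42745041-42745290, and SUZ12 on the plus strand at chr17:31936757-31937006.
EZH2: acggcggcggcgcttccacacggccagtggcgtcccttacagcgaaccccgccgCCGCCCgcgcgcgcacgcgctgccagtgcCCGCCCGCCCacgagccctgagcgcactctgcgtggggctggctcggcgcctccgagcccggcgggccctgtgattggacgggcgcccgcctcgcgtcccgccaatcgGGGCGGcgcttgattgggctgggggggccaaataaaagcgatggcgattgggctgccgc
EZH1: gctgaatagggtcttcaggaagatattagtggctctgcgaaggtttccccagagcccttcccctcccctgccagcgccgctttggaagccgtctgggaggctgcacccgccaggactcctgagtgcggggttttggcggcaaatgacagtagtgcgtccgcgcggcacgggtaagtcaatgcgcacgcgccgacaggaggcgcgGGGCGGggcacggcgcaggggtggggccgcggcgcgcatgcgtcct
SUZ12: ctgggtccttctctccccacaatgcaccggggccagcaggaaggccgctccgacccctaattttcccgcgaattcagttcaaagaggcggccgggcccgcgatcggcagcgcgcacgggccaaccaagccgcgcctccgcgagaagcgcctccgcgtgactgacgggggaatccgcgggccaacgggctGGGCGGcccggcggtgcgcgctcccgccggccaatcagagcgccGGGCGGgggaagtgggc
The windows held 4 GC boxes in EZH2, 1 in EZH1 and 2 in SUZ12.

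Such CpG-rich starts were the rule in the family. A promoter window was found for 51 of the 55 genes, and those of DNMT3L, KDM4E, HDAC5 and SIRT7 were not matched. CpG dinucleotides reached an observed to expected ratio of 0.6 or more in 47 of the 51 windows, or 92.2%, beside 82.4% of 9299 promoters of genes tested and 47.3% of all 27305 promoters. The median ratio was 0.90 in the family, 0.83 among genes tested and 0.55 among all promoters. The 4 windows under 0.6 belonged to both de novo DNA methyltransferases, DNMT3B at 0.13 and DNMT3A at 0.45, and to HDAC8 at 0.49 and TET1 at 0.56. A GC box was present in 64.7% of the windows, beside 69.0% among genes tested. The letters TATAAA on either strand were in 0 of the 51 windows, beside 4.63% among genes tested. The E2F letters TTTCCCGC, TTTGGCGC or TTTCGCGC were in 5.88% beside 4.04%, the ETS letters CCGGAAGT in 1.96% beside 7.56%, and the NF-kB consensus in 0 of 51 beside 2.01%. A match is a string of letters and not a bound site. Each window lies before the most upstream RefSeq start of its gene, and whether HMC3 uses that start was not tested.

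**Figure D1:**
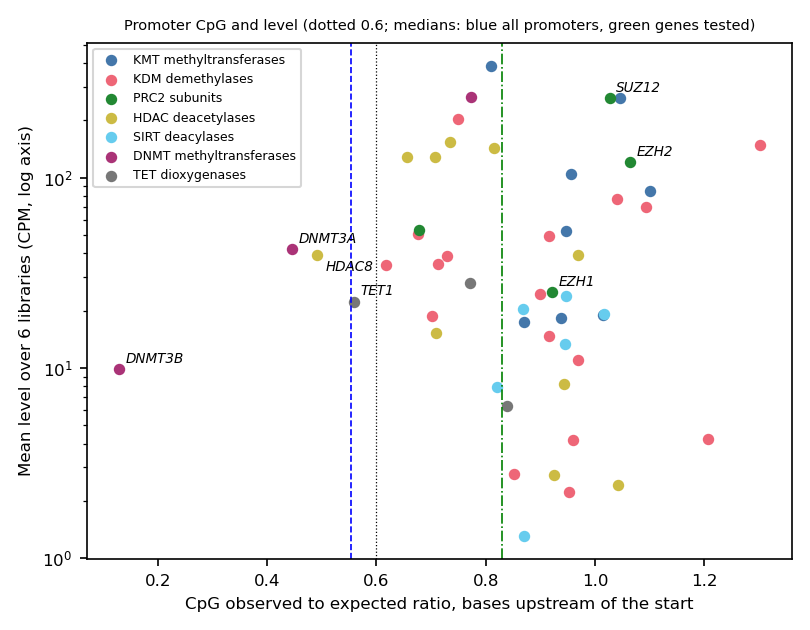
CpG observed to expected ratio in the 250 bases upstream of the start (horizontal axis) against the mean level over 6 libraries in CPM (vertical log axis), 1 point a gene, coloured by family. The dotted line marks 0.6 and vertical lines the medians of all promoters (blue, 0.55) and of genes tested (green, 0.83); 4 genes lie left of 0.6, with DNMT3B at 0.13 farthest left.

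HMC3 cells held RNA of nearly the whole family. Of the 55 genes, 53 passed the low-count filter and 42 of them had a mean of 10 CPM or more. The other 2 had 0 counts in all 6 libraries: DNMT3L, the catalytically inactive partner of de novo methylation in germ cells, and KDM4E, a KDM4 paralogue. With 3 counts as the limit, their levels lay under 0.293 CPM in the deepest library and under 0.543 CPM in the shallowest. This limit covers counting error only. The most abundant member was KMT2A at a mean of 386 CPM over 6 libraries, followed by DNMT1 at 267, SUZ12 at 263, KMT2E at 261 and KDM5A at 203.5. Over all 6 libraries the ranges of DNMT1, SUZ12 and KMT2E overlapped. SUZ12 was above DNMT1 in every Control library and below it in every IL-33 library. The order of these genes was not tested. The lowest detected were SIRT4 at 1.32 CPM, KDM4D at 2.23 and HDAC9 at 2.42.

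IL-33 changed no member past the threshold. None of the 53 tested was called at an adjusted p under 0.05 by the quasi-likelihood test of edgeR, adjusted over all genes by Benjamini-Hochberg, where 0 of 12125 genes (0%) were called. At an unadjusted p under 0.05 there was 1 member, HDAC10, beside 2.43% of all genes tested (1.45% higher, 0.981% lower). DESeq2 and limma-voom also called 0 members, with 1 and 0 at an unadjusted p under 0.05. The smallest adjusted p of a member was 0.999 by edgeR and by DESeq2 and 0.9998 by limma-voom. IL-33 minus Control, 26 members had a log2 fold change above 0 and 27 below, beside 48.9% of all genes above 0. The median log2 fold change was -0.0038 for the members and -0.0051 for all genes tested, and the members ran from -0.96 for SIRT4 (-0.36 without Control 2) to 0.78 for HDAC10. In bulk RNA, fewer cells with a transcript and less of it per cell cannot be told apart.

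Like the p-values, the intervals reflect only how these libraries vary, and within that limit they bound how large a change could be. For 45 of 53 members the 95% interval of the log2 difference stayed inside -1 to 1, beside 73.4% of all genes tested, and for 42 of the 42 members at 10 CPM or more, beside 96.9%. It stayed inside a fold of 1.5 in either direction for 28 of those 42, beside 71.2%. The 8 members with wider intervals were HDAC4, HDAC9, HDAC10, KDM4C, KDM4D, KDM7A, KDM8 and SIRT4, whose means were 1.32 to 8.24 CPM. For them a change of more than 2-fold was not excluded at this depth.

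The 3 libraries of each group did not overlap for 6 of 53 members, which is 11.3% beside 8.06% of all genes tested. DNMT1, EZH2, KMT2A, KMT5C and SIRT5 were higher in all 3 IL-33 libraries (the share over all genes in this direction was 4.54%), and SUZ12 was lower (3.51%). The largest of these separations in fold change was 0.32 on the log2 scale, for SIRT5.

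**Figure D2:**
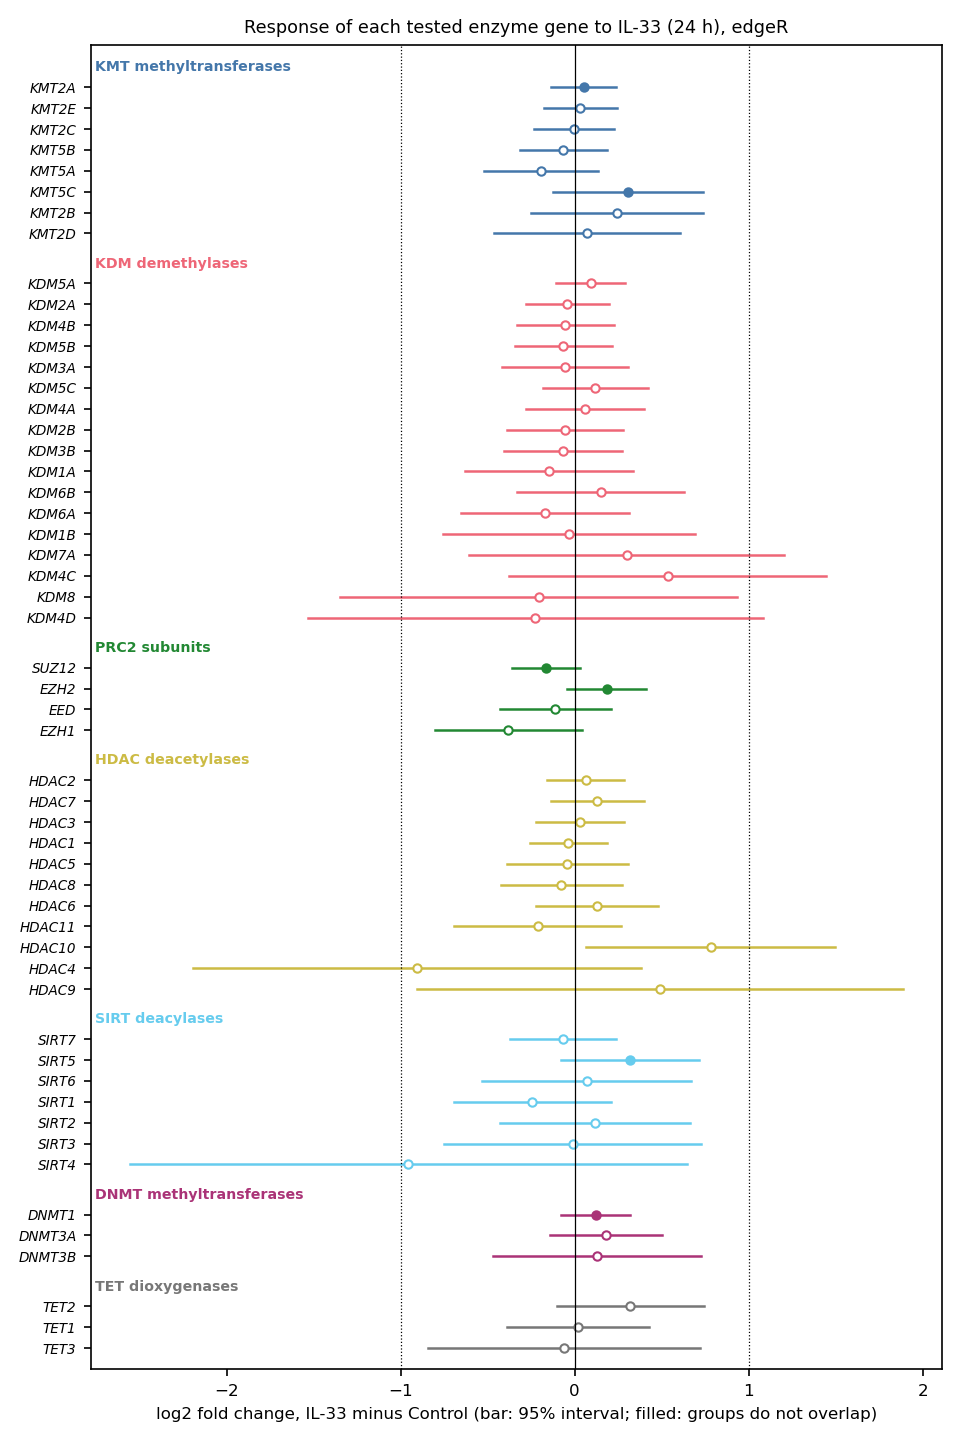
log2 fold change, IL-33 minus Control, with its 95% interval for the 53 members tested, grouped and coloured by family. Filled points mark the 6 members whose groups do not overlap; every interval but that of HDAC10, which starts at 0.07, includes 0, and the widest belong to members of low level such as SIRT4.

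Within PRC2, EZH2 is the main catalytic subunit of dividing cells, EZH1 its paralogue common in resting cells, EED the subunit that binds the finished mark, and SUZ12 the scaffold. EZH2 was at 113, 115 and 111 CPM in Control 1, 2 and 3 and at 130, 120 and 136 CPM in IL-33 1, 2 and 3. All IL-33 libraries lay above all Control libraries, with a log2 fold change of 0.18 ± 0.11 (SE, n = 3 a group) and an unadjusted edgeR p of 0.104. EZH1 was at 28.6, 21.6 and 35.1 CPM in Control and at 23.2, 21.6 and 20.4 CPM with IL-33. Control 3 held the highest level of EZH1 and the groups overlapped, with a log2 fold change of -0.38 ± 0.20 and an unadjusted edgeR p of 0.0739. The EZH1 log2 fold change was -0.21 without Control 3 and -0.54 without Control 2, the latter with an unadjusted edgeR p of 0.0186, and EZH1 in Control 3 lay 0.49 above the other Control libraries on the log2 scale. SUZ12 was at 272, 280 and 282 CPM in Control and at 258, 252 and 234 CPM with IL-33. Its 3 IL-33 libraries were the 3 lowest, with a log2 fold change of -0.16 ± 0.09 and an unadjusted edgeR p of 0.0940. EED ran from 44.3 to 63.5 CPM in Control and from 48.8 to 55.1 CPM with IL-33, with the widest spread in Control. None of the 4 subunits passed the adjusted threshold, at an adjusted edgeR p of 0.999 for each.

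The EZH2 to EZH1 ratio of CPM was 3.96, 5.33 and 3.17 in Control libraries, and in IL-33 libraries it was 5.60, 5.56 and 6.68. The groups did not overlap, and the mean log2 ratio was 2.02 ± 0.38 (SD, n = 3) in Control and 2.57 ± 0.15 with IL-33. The difference of 0.54 had a two-sided exact permutation p of 0.1, the smallest that 3 against 3 libraries can give, so that this design could not reach 0.05. Adjusted by Benjamini-Hochberg over the 5 ratios computed, the exact permutation p was 0.5. Control 2, at 5.33, lay close to the lower IL-33 libraries, and the difference without Control 3 was 0.37. The summed level of the 4 subunits was 473 to 477 CPM in Control and 440 to 461 CPM with IL-33, and SUZ12 made up the larger part of it in every library.

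SUZ12 has a transcribed pseudogene on the same chromosome, SUZ12P1 (chromosome 17, 30709299 to 30790908, plus strand, GENCODE on GRCh38), which was added here after its values were seen. SUZ12P1 was at 23.9, 24.9 and 25.5 CPM in Control and at 34.6, 33.6 and 30.4 CPM with IL-33. The IL-33 libraries were all higher, as for 4.54% of all genes tested, and opposite in direction to SUZ12. The log2 fold change was 0.41 ± 0.17 (SE, n = 3 a group), with an unadjusted edgeR p of 0.0269 and an adjusted p of 0.999. As a share of the counts of both genes, SUZ12P1 held 8.10%, 8.17% and 8.29% in Control libraries, and in IL-33 libraries it held 11.8%, 11.8% and 11.5%. The groups did not overlap in this share. It rests on 141 to 344 SUZ12P1 counts a library, and its counting error was not computed, so closeness within a group is no measure of precision. The sum of both was 296, 305 and 308 CPM in Control and 293, 285 and 265 CPM with IL-33, so the sum was also lower in every IL-33 library. The copies share sequence, and how the authors' counting divided or dropped reads that match both is not given in the sources used here, so the values of both are uncertain.

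**Figure D3:**
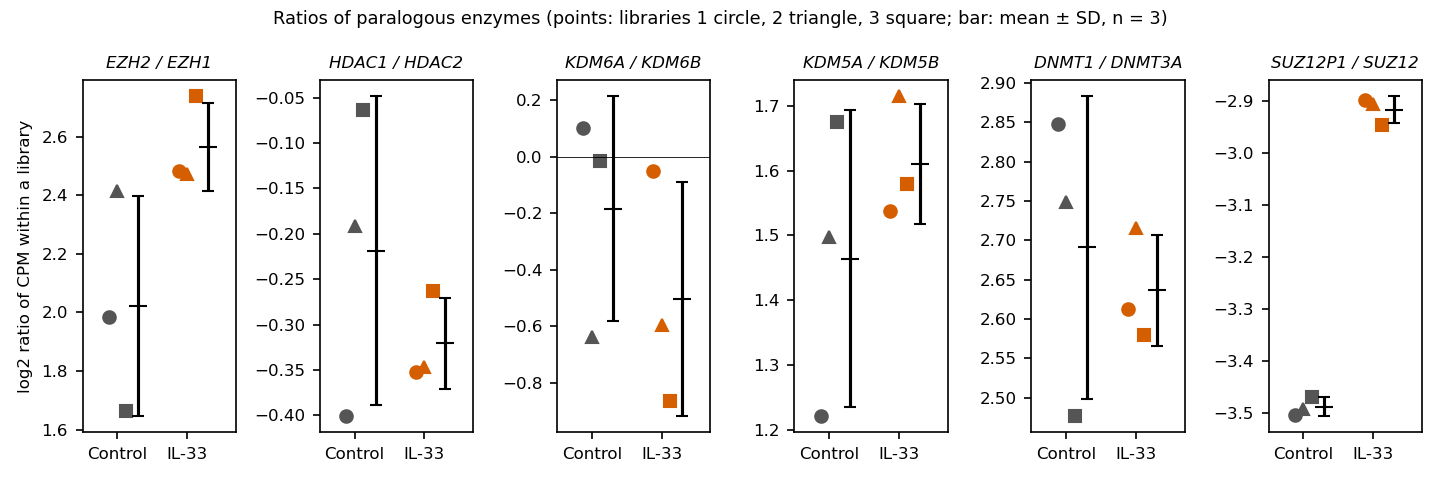
log2 ratio of CPM within each library for 5 pairs of paralogous enzymes and for SUZ12P1 over SUZ12, by group (grey, Control; orange, IL-33), with the mean ± SD (n = 3); each panel has its own vertical scale. The groups separate for EZH2 over EZH1 and for SUZ12P1 over SUZ12, a pair added after its values were seen, and overlap in the other 4 panels.

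The KMT group holds enzymes of active and of silent chromatin. KMT2A and KMT2B methylate H3K4 at promoters, KMT2C and KMT2D mainly at enhancers, and KMT2E is a relative that reads the mark and has no established activity of its own. KMT2A was at 373, 385 and 380.5 CPM in Control and at 386, 398 and 396 CPM with IL-33. The groups did not overlap, but the gap from Control 2 to IL-33 1 was small, and the log2 fold change was 0.05 ± 0.09 with an unadjusted edgeR p of 0.567. KMT2B was at 13.8 to 22.4 CPM in Control, with Control 3 highest, and at 16.5 to 22.8 CPM with IL-33. KMT2C (101 to 109.5 CPM in Control, 97.3 to 110 with IL-33), KMT2D (15.6 to 17.8, then 11.6 to 25.1) and KMT2E (235 to 279, then 243.5 to 275) overlapped between groups. KMT2B and KMT2E each overlap an expressed gene on the opposite strand at their 3′ end, IGFLR1 and SRPK2. The strand setting of the counting is not given in the sources used here, so reads of such partners cannot be told apart.

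KMT5A, KMT5B and KMT5C methylate H4K20, KMT5A by adding the first methyl group and KMT5B and KMT5C the later ones. KMT5C was at 17.8, 16.7 and 16.7 CPM in Control and at 23.7, 21.3 and 18.4 CPM with IL-33. All IL-33 libraries were above all Control libraries, IL-33 3 by the least, and the log2 fold change was 0.31 ± 0.21 with an unadjusted edgeR p of 0.152. KMT5A was at 46.5, 58.0 and 63.2 CPM in Control and at 52.6, 51.8 and 41.5 CPM with IL-33. The groups overlapped, since Control 1 was lower than 2 of the IL-33 libraries, and the log2 fold change was -0.19 ± 0.16, with -0.31 without Control 1 and -0.094 without IL-33 3. KMT5B ran from 83.3 to 94.1 CPM in Control and from 78.2 to 90.3 CPM with IL-33.

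Among the 17 KDM demethylases tested, 6 had a log2 fold change above 0 and 11 below, and no groups separated. KDM5A, KDM5B and KDM5C remove methyl groups from H3K4. KDM5A, the most abundant KDM, was at 193, 192 and 206 CPM in Control and at 211, 213.5 and 205 CPM with IL-33. Control 3 reached just above the lowest IL-33 library, and the log2 fold change was 0.09 ± 0.09 with an unadjusted edgeR p of 0.342. KDM5B (64.4 to 82.8 CPM in Control, 65.0 to 72.8 with IL-33) and KDM5C (44.0 to 50.3, then 45.7 to 54.3) overlapped. The KDM5A to KDM5B log2 ratio differed by 0.15 between groups, with an exact permutation p of 0.4. KDM1A and KDM1B, the flavin-dependent H3K4 demethylases, were at 21.0 to 29.5 and 6.97 to 17.4 CPM in Control and at 16.1 to 31.8 and 8.25 to 15.5 CPM with IL-33. Both ranges overlapped, and those of KDM1A with IL-33 spanned all of Control.

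KDM6A and KDM6B erase the PRC2 mark. KDM6A was at 15.8, 13.8 and 17.0 CPM in Control and at 15.2, 12.99 and 13.1 CPM with IL-33. The groups overlapped, with a log2 fold change of -0.17 ± 0.23 (-0.11 without Control 3) and an unadjusted edgeR p of 0.467. KDM6B was at 14.7, 21.5 and 17.2 CPM in Control and at 15.8, 19.6 and 23.8 CPM with IL-33. Highest and lowest values of KDM6B interleaved between groups, and its log2 fold change of 0.15 had a 95% interval of -0.33 to 0.63. The KDM6A to KDM6B log2 ratio was lower by 0.32 with IL-33, at an exact permutation p of 0.4.

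KDM2A and KDM2B, H3K36 demethylases that bind unmethylated CpG, were at 134 to 172 and 33.7 to 39.8 CPM in Control and at 135 to 155.5 and 33.8 to 34.9 CPM with IL-33. KDM3A and KDM3B, H3K9 demethylases, were at 36.0 to 59.6 and 31.5 to 38.1 CPM in Control and at 46.6 to 54.0 and 32.3 to 35.8 CPM with IL-33. Control 3 was the highest library for KDM2A and KDM2B and the lowest for KDM3A and KDM3B. The KDM4 enzymes act on H3K9, and KDM4A, KDM4B and KDM4C also on H3K36. KDM4A (32.6 to 41.3 CPM in Control, 35.8 to 43.2 with IL-33) and KDM4B (68.3 to 92.7, then 70.9 to 81.2) carried most of this group's RNA. KDM4C (2.53 to 4.33, then 4.004 to 6.39) and KDM4D (1.49 to 3.73, then 1.07 to 2.73) were near the lower end of what could be tested. KDM7A, which acts on H3K9 and H3K27, was at 2.65 to 5.06 CPM in Control and 4.10 to 5.22 CPM with IL-33, and KDM8 at 2.88 to 3.08 and 1.56 to 3.73 CPM. All of these ranges overlapped between groups. KDM2B and KDM4A overlap RNF34 and KDM4A-AS1 on the opposite strand at their 3′ end.

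The class I deacetylases HDAC1, HDAC2 and HDAC3, the catalytic subunits of nuclear corepressors, were the best expressed HDAC genes together with the class IIa enzyme HDAC7. HDAC2 was at 160, 159 and 134 CPM in Control and at 162, 160 and 151 CPM with IL-33. Control 3 was the lowest library and the groups overlapped, with a log2 fold change of 0.06 ± 0.11 and an unadjusted edgeR p of 0.562. HDAC1 (121 to 139 CPM in Control, 126 to 127 with IL-33) and HDAC3 (113.5 to 150, then 119 to 136) were as close between groups. HDAC8, the class I enzyme outside those complexes, was at 34.7 to 47.5 CPM in Control and 35.0 to 43.4 CPM with IL-33. The HDAC1 to HDAC2 log2 ratio differed by -0.10, with an exact permutation p of 0.4.

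Class IIa enzymes shuttle between nucleus and cytoplasm and have little deacetylase activity of their own. HDAC7 was at 114.5 to 168 CPM in Control, with Control 3 highest, and at 140 to 153 CPM with IL-33. HDAC5 was at 40.7 to 50.4 CPM in Control and 38.0 to 54.0 CPM with IL-33, HDAC4 at 1.56 to 6.55 and 1.06 to 2.64 CPM, and HDAC9 at 0.962 to 3.62 and 1.28 to 5.08 CPM. These ranges overlapped, and single libraries (Control 1 for HDAC4, IL-33 2 for HDAC9) held the extremes. HDAC7 overlaps SLC48A1 on the opposite strand at its 3′ end.

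HDAC6 deacetylates tubulin, HDAC10 acts on acetylated polyamines, and HDAC11 is the sole class IV enzyme. HDAC10 was at 7.05, 6.97 and 3.98 CPM in Control and at 6.71, 11.6 and 13.1 CPM with IL-33. IL-33 2 and 3 were above all Control libraries, while IL-33 1 lay between Control 3 and the other Controls. Its log2 fold change was 0.78 ± 0.34 (SE, n = 3 a group) with an unadjusted edgeR p of 0.0338 and an adjusted p of 0.999. The HDAC10 log2 fold change without Control 3 was 0.58, with an unadjusted edgeR p of 0.0902, and without IL-33 2 or IL-33 3 that p was 0.102 or 0.156. HDAC10 rested on 22 to 119 counts a library. It overlaps MAPK12 on the same strand, away from its own 3′ end, with 444 counts for HDAC10 and 698 for MAPK12 over all libraries. DNMT1 and SIRT7 likewise overlap S1PR2 and MAFG on the same strand. How reads in such overlaps were counted is not given in the sources used here. HDAC11 was at 14.7, 15.9 and 18.6 CPM in Control and at 15.7, 13.2 and 13.4 CPM with IL-33. Its groups overlapped through IL-33 1, with a log2 fold change of -0.21 ± 0.23 (-0.12 without Control 3). HDAC6 ran from 34.3 to 39.6 CPM in Control and from 35.8 to 49.3 CPM with IL-33.

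Sirtuins use NAD+ to remove acyl groups. SIRT1, SIRT6 and SIRT7 are mainly nuclear, SIRT2 mainly cytosolic, and SIRT3, SIRT4 and SIRT5 mitochondrial. SIRT7, the most abundant, was at 52.1, 50.4 and 67.9 CPM in Control and at 54.5, 53.5 and 54.0 CPM with IL-33. The IL-33 libraries lay close together between Control 1 and Control 3, with a log2 fold change of -0.07 ± 0.15. SIRT5, which removes succinyl and related groups, was at 23.6, 22.1 and 17.7 CPM in Control and at 28.03, 26.1 and 25.5 CPM with IL-33. Its groups did not overlap, with a log2 fold change of 0.32 ± 0.19 and an unadjusted edgeR p of 0.111, and without Control 3, its lowest library, the difference was 0.21. SIRT1 was at 19.5, 20.1 and 23.0 CPM in Control and at 15.4, 15.8 and 21.6 CPM with IL-33. IL-33 3 reached into the Control range, and the log2 fold change was -0.24 ± 0.22, with -0.42 without IL-33 3 and -0.16 without IL-33 1. SIRT6 was at 16.7, 12.5 and 31.3 CPM in Control and at 20.1, 17.6 and 24.9 CPM with IL-33, with Control 3 alone above every IL-33 library. SIRT2 (10.3 to 14.4 CPM in Control, 10.1 to 16.6 with IL-33), SIRT3 (6.36 to 10.7, then 4.69 to 10.4) and SIRT4 (0.894 to 2.89, then 0.684 to 1.28) overlapped between groups. SIRT4 held 6 to 24 counts a library. On the opposite strand and away from their 3′ ends, SIRT2 overlaps NFKBIB and SIRT3 overlaps PSMD13. Over all libraries SIRT2 had 700 counts and NFKBIB 1465, and SIRT3 had 410 and PSMD13 6859. With the strand setting not given, reads of these partners cannot be told apart.

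DNMT1 copies methylation to the new strand after replication, and DNMT3A and DNMT3B set it de novo. DNMT1 was at 265, 261 and 240 CPM in Control and at 271, 271 and 293 CPM with IL-33. All IL-33 libraries were above all Control libraries, by a log2 fold change of 0.12 ± 0.09 with an unadjusted edgeR p of 0.213, and of 0.08 without Control 3, the lowest. DNMT3A was at 36.8 to 43.1 CPM in Control and 41.2 to 48.9 CPM with IL-33, and DNMT3B at 7.85 to 10.7 and 8.37 to 12.3 CPM. Both overlapped between groups, and the DNMT1 to DNMT3A log2 ratio differed by -0.05 with an exact permutation p of 0.7. The summed level of the DNMT genes was 293 to 310 CPM in Control and 324 to 350 CPM with IL-33. DNMT1 made up the larger part of this sum in every library, so the sum mainly repeats DNMT1. The summed levels of the HDAC, KDM, KMT and SIRT genes overlapped between groups.

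TET2, the TET enzyme best known from blood cells, was at 22.0, 30.8 and 21.4 CPM in Control and at 26.2, 38.0 and 28.5 CPM with IL-33. Control 2 lay above 2 of the IL-33 libraries, and the log2 fold change was 0.32 ± 0.20 with an unadjusted edgeR p of 0.129. The TET2 log2 fold change was 0.14 (unadjusted edgeR p 0.531) without IL-33 2 and 0.51 (unadjusted edgeR p 0.0342) without Control 2. TET3 was at 7.94, 7.93 and 3.44 CPM in Control and at 5.01, 6.93 and 6.84 CPM with IL-33. Control 3 held the lowest level of TET3 and the other Controls the highest, with a log2 fold change of -0.06 ± 0.37. TET1 ran from 21.3 to 23.0 CPM in Control and from 19.9 to 26.3 CPM with IL-33. As sums, TET genes were at 47.8 to 61.1 CPM in Control and 52.5 to 64.8 CPM with IL-33.

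**Figure D4:**
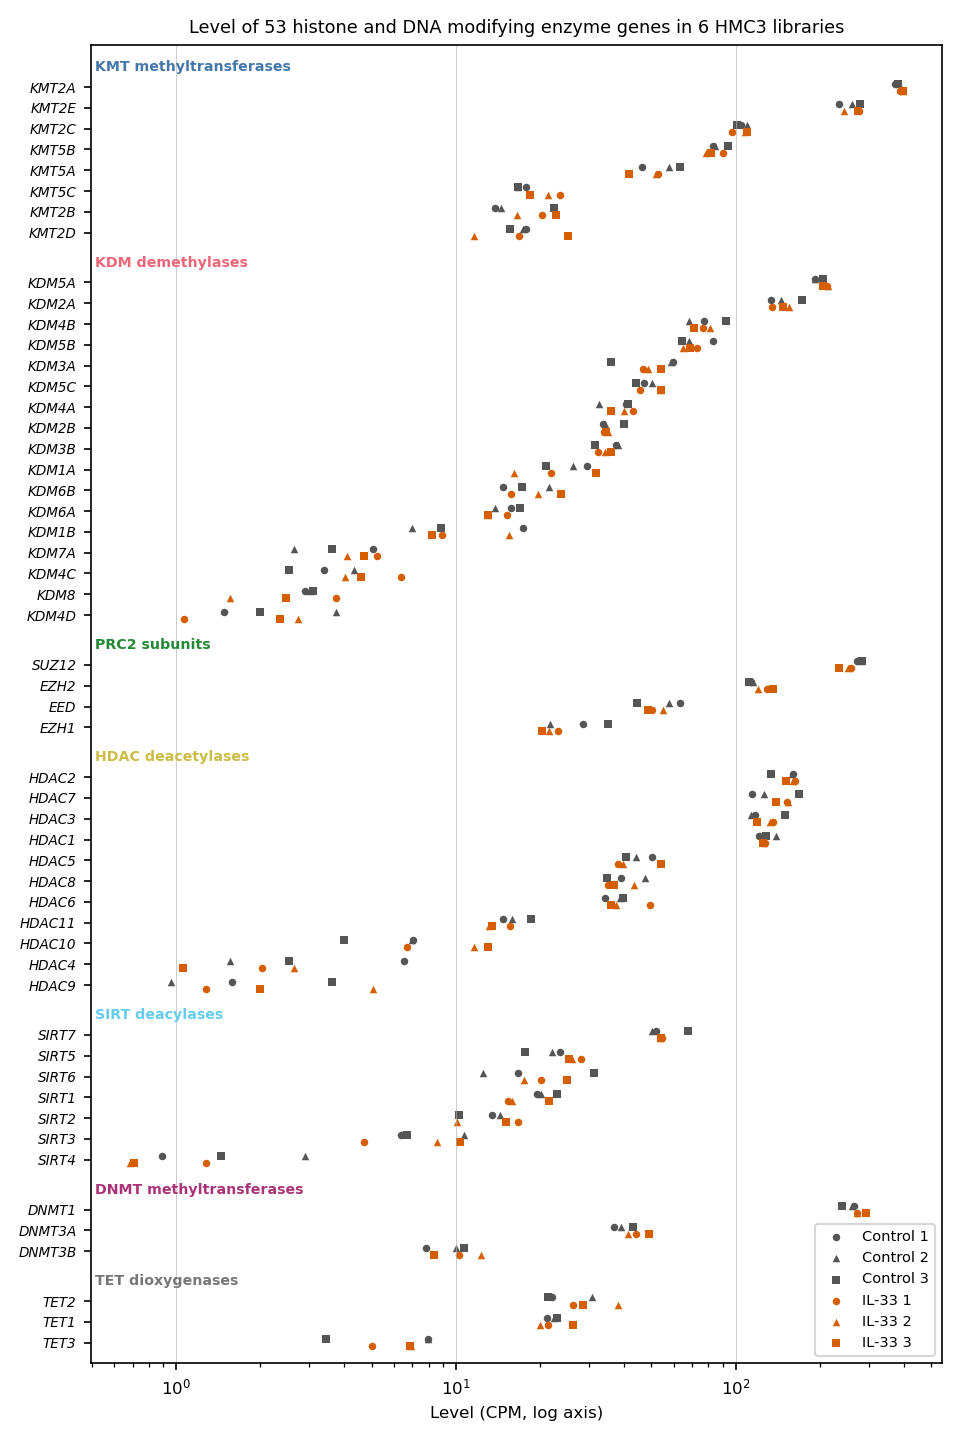
Level in CPM (log axis) of the 53 members tested, 1 row a gene and grouped by family, with Control in grey above IL-33 in orange and the 3 libraries of each group as separate points. KMT2A, KMT2E, DNMT1 and SUZ12 sit above 200 CPM in every library, while HDAC4, HDAC9 and SIRT4 lie under 7 CPM and spread widely.

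Control 3 lay far from the other Controls for several members, in both directions. This sets 1 library against the mean of 2, so it is not comparable with a difference between groups. Over the 53 members the median deviation of Control 3 was -0.019 on the log2 scale, with 28 below 0. For all genes tested it was 0.0025, with 6032 of 12125 below 0. The members named next were picked for large deviations. Relative to those Controls, Control 3 was higher by 1.39 on the log2 scale for HDAC9, 1.10 for SIRT6, 0.65 for KMT2B and 0.48 for HDAC7, and it was lower for TET3 (-1.16), HDAC10 (-0.78) and KDM3A (-0.71). With Control 3 left out, a step chosen with its distance known, edgeR again called 0 of 53 members, while it called 6 of 12611 genes (0.0476%). DESeq2 and limma-voom called 0 members on the same 5 libraries. At an unadjusted p under 0.05 there were 3 members, all higher with IL-33, beside 6.30% of all genes. They were HDAC7 (log2 fold change 0.30, adjusted edgeR p 0.402), SIRT6 (0.51, 0.733) and KMT2B (0.48, 0.781). Groups then did not overlap for 17 members, or 32.1%, beside 22.1% of all genes, with 12 higher (11.2% of all genes) and 5 lower (11.0%). The higher were DNMT1, DNMT3A, EZH2, HDAC3, HDAC7, KDM5A, KMT2A, KMT2B, KMT5C, SIRT5, SIRT6 and SIRT7, and the lower were EED, KDM3A, KDM3B, SUZ12 and TET3. The median log2 fold change of the members was 0.02 on these libraries. What sets Control 3 apart was not tested.

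**Figure D5:**
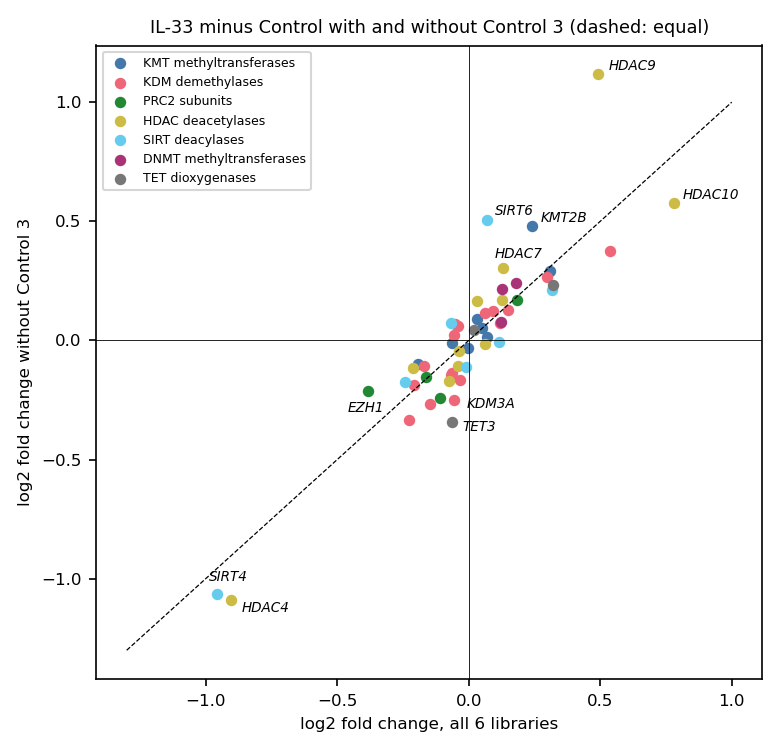
log2 fold change, IL-33 minus Control, from all 6 libraries (horizontal axis) against that without Control 3 (vertical axis) for the 53 members tested, coloured by family, with the line of equality dashed. HDAC9, SIRT6, KMT2B and HDAC7 lie above the line, and TET3, KDM3A and HDAC10 below it.

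The partners and counterparts of these enzymes were read from 8 lists of 125 genes, of which 120 were tested. By edgeR 0 of the 120 passed the adjusted threshold, DESeq2 and limma-voom called 0 as well, and 2 had an unadjusted edgeR p under 0.05 (beside 2.43% of all genes). Of the 120, 60 were above 0 and 60 below, with a median log2 fold change of 0.0019, and groups did not overlap for 12, with 8.06% as the share over all genes. Those 2 genes moved in opposite directions. EHMT1, an H3K9 methyltransferase, was at 37.7, 34.1 and 34.6 CPM in Control and at 25.5, 27.6 and 26.9 CPM with IL-33. Its groups were well apart, with a log2 fold change of -0.41 ± 0.17 (SE, n = 3 a group), an unadjusted edgeR p of 0.0220 and an adjusted p of 0.999. MBD1, a reader of methylated CpG, was at 22.5, 20.6 and 12.7 CPM in Control and at 33.5, 24.3 and 25.0 CPM with IL-33. All IL-33 libraries were higher, with a log2 fold change of 0.55 ± 0.22 and an unadjusted edgeR p of 0.0232, which was 0.35 with an unadjusted p of 0.0822 without Control 3.

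Of 9 PRC2 partners tested, 2 were above 0 and 7 below, none past the threshold, between -0.11 and 0.06. AEBP2, an accessory subunit that binds DNA, was at 0.06 ± 0.16 and RBBP4, a histone-binding subunit, at -0.08 ± 0.12. Of 12 partners of the KMT2 complexes, 9 were above 0 and 3 below. PAXIP1, a subunit of the KMT2C and KMT2D complexes, was at 0.22 ± 0.19, and DPY30, a core subunit, at -0.33 ± 0.16 with an unadjusted edgeR p of 0.0584. DPY30 without Control 3 was at -0.47, with an adjusted edgeR p of 0.402. Of 15 acetyltransferases, the writers of the mark that HDAC enzymes remove, 7 were above 0 and 8 below. KAT6B was at 0.14 ± 0.13 with groups that did not overlap, and KAT8, the H4K16 acetyltransferase, at -0.51 ± 0.27 with Control 3 highest. KAT8 was at -0.21 without Control 3. Of 26 corepressor partners of HDAC enzymes and KDM1A, 13 were above 0 and 13 below, with PHF21A, a KDM1A partner, at 0.33 ± 0.22 (0.15 without Control 3) and GATAD2B, a subunit of the NuRD complex, at -0.19 ± 0.12. Of 23 other histone methyltransferases, 10 were above 0 and 13 below, and PRDM2 was at 0.26 ± 0.19. Of 15 DNA methylation partners, 10 were above 0 and 5 below, and MBD4, a glycosylase that repairs deaminated methylcytosine, was at -0.18 ± 0.11 (-0.06 without Control 3). Groups did not overlap for 3 of the 15, MBD1 among them, all higher with IL-33, beside 4.54% of all genes in that direction.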

How the data were processed

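The authors deposited whole-number read counts per gene symbol for 6 libraries, in 1 table. TRIZOL extraction and the QuantSeq FWD kit of Lexogen were used, per the labels' protocols. Per the submitters' processing notes the tools were STAR 2.7.5a, HTSeq 0.6.1 and edgeR, with the build hg38. Their roles, the annotation, the strand setting and any read filter were not given in the sources used here. Of 27470 rows, 1 without values was left out.

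Counts were tested with edgeR 4.0.16 (R 4.3.3): filterByExpr with a count minimum of 10 and a total minimum of 15 left 12125 genes with 99.9% of the counts, TMM scaled the libraries, and the robust quasi-likelihood test compared IL-33 with Control, adjusted by Benjamini-Hochberg at 0.05 over all genes tested, two-sided. Error terms of log2 fold changes are standard errors, and intervals are at 95%. Each of 5 ratios was compared by an exact permutation test over libraries. DESeq2 1.42.0 and limma-voom (limma 3.58.1) were other tools, and other scalings, filters, a replicate block and leaving out each library were tried. The fitting code was tested on simulated data. Gene positions came from GENCODE release 29 (GRCh38), and promoter sequences from RefSeq (GRCh38.p14), matched by symbol and taken at the most upstream start. Values in each library are given for members with the highest mean or the smallest unadjusted p in each direction within their family, at 5 CPM or more, and for members whose groups did not overlap. KDM6B and SIRT6 were added to these after their values were seen. Of each other list, the gene with the smallest p in each direction is named, except 1 that is not reported here. CPM of the cell type markers were computed from library totals alone. Members, lists and the naming rule were chosen with earlier results of these data known. Limits from counts cover counting error only: PCR copies without molecular identifiers are not independent molecules. Figures were drawn with matplotlib 3.10.9.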

Additional observations from a re-analysis of the deposited data

How the results depend on the processing

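No member was called under any setting run, and no gene of the other lists under those run for them, which leave out DESeq2 and limma-voom without Control 3. Over all genes, where edgeR called 0, the count was 3 with no low-count filter, 1 with DESeq2, and 0 to 6 when 1 library at a time was left out, with 6 without Control 3. Without Control 3, DESeq2 called 2 genes and limma-voom 15, settings chosen after the data were seen. Leaving out 1 library in turn changed the sign of the log2 fold change, each smaller than its standard error, of 30 genes, with these lowest and highest values: DNMT3B (-0.022 to 0.25), EED (-0.24 to 0.0018), HDAC1 (-0.083 to 0.021), HDAC2 (-0.015 to 0.11), HDAC3 (-0.039 to 0.17), HDAC5 (-0.22 to 0.050), HDAC6 (-0.033 to 0.21), HDAC8 (-0.17 to 0.058), HDAC9 (-0.29 to 1.12), KDM1A (-0.44 to 0.062), KDM1B (-0.38 to 0.47), KDM2A (-0.12 to 0.062), KDM2B (-0.099 to 0.023), KDM3A (-0.25 to 0.063), KDM4A (-0.040 to 0.13), KDM4B (-0.15 to 0.068), KDM4D (-0.49 to 0.25), KDM5B (-0.14 to 0.053), KDM6B (-0.0067 to 0.31), KDM8 (-0.57 to 0.059), KMT2C (-0.037 to 0.048), KMT2D (-0.25 to 0.30), KMT2E (-0.032 to 0.092), SIRT2 (-0.032 to 0.31), SIRT3 (-0.25 to 0.27), SIRT6 (-0.18 to 0.51), SIRT7 (-0.14 to 0.074), TET1 (-0.11 to 0.10), TET3 (-0.34 to 0.11) and AEBP2 (-0.029 to 0.14). It moved the value by over 1.5 times, with no change of sign, for DNMT1 (0.078 to 0.15), DNMT3A (0.11 to 0.24), HDAC11 (-0.30 to -0.12), HDAC4 (-1.26 to -0.077), HDAC7 (0.017 to 0.30), KDM3B (-0.14 to -0.015), KDM4C (0.32 to 0.74), KDM5C (0.074 to 0.19), KDM6A (-0.25 to -0.11), KDM7A (0.094 to 0.59), KMT2B (0.11 to 0.48), KMT5A (-0.31 to -0.094), KMT5B (-0.13 to -0.011), SIRT4 (-1.31 to -0.36), SIRT5 (0.21 to 0.41), KAT6B (0.087 to 0.16), KAT8 (-0.72 to -0.21), PRDM2 (0.14 to 0.43), PHF8 (0.066 to 0.37), JMJD6 (-0.31 to -0.11), RBBP4 (-0.16 to -0.032), PAXIP1 (0.15 to 0.34), PHF21A (0.15 to 0.51), MBD1 (0.35 to 0.72) and MBD4 (-0.24 to -0.063). The same held for EZH1 (-0.54 to -0.21), SIRT1 (-0.42 to -0.16) and TET2 (0.14 to 0.51). The DNMT1 to DNMT3A ratio differed by -0.16 to 0.024 on the log2 scale and the EZH2 to EZH1 difference from 0.37 to 0.74. Differences of the HDAC1 to HDAC2, KDM6A to KDM6B and KDM5A to KDM5B ratios changed in size and kept their sign. The KMT2C log2 fold change turned sign with library size alone (0.0074) and with a minimum mean of 10 CPM (0.0022), SIRT3 with library size alone (0.0032), and KMT2D with limma-voom (-0.04). The cause was not tested. The median over all genes was -0.0051 with TMM, 0.0052 with library size alone and -0.0094 with DESeq2 size factors.

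The labels number the libraries of each group alike. Deviations of same-numbered libraries correlated at -0.09, 0.03 and -0.14, and these numbers are not treated as pairs. With a replicate block 0 members were called and KDM1B changed sign (0.019). For the EZH2 to EZH1 ratio, the mean difference of same-numbered libraries is 0.54 by construction, equal to the difference of group means. An exact test that flips the signs of these differences gave a p of 0.25, the smallest it can give. Depth limits what is said of the 11 tested members under 10 CPM.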

Other observations

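Metabolic enzymes that make or use the cofactors of these enzymes, and JmjC proteins outside the KDM symbols, were read in the same fit. Of 13 metabolic cofactor enzymes tested, 7 had a log2 fold change above 0 and 6 below, with 0 called by edgeR, DESeq2 or limma-voom and 0 at an unadjusted edgeR p under 0.05. OGDH, which uses the 2-oxoglutarate that KDM and TET enzymes also need, was at 19.3, 18.8 and 22.3 CPM in Control and at 23.1, 25.1 and 22.9 CPM with IL-33. All IL-33 libraries were higher, by a log2 fold change of 0.24 ± 0.19 with an unadjusted edgeR p of 0.223.

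Of 8 other JmjC proteins tested, 2 were above 0 and 6 below, 0 called by the same 3 tools and 0 at an unadjusted edgeR p under 0.05, with a median log2 fold change of -0.14. Groups did not overlap for 2 of the 8, JMJD1C and JMJD6, both lower with IL-33, with 3.51% as the share of all genes in that direction. JMJD1C, a relative of KDM3A named after its values were seen, was at 113, 113 and 113 CPM in Control and at 104, 95.1 and 99.9 CPM with IL-33. Its 3 Control libraries lay close together above those with IL-33, and the log2 fold change was -0.18 ± 0.11 at an unadjusted edgeR p of 0.109. JMJD6, a JmjC hydroxylase, was at 82.1, 90.5 and 108 CPM in Control and at 81.4, 80.4 and 78.2 CPM with IL-33. All IL-33 libraries were lower, by a narrow gap to Control 1, with a log2 fold change of -0.22 ± 0.13 that was -0.11 without Control 3. PHF8, a demethylase of H3K9 and H4K20, was at 10.5, 12.6 and 8.32 CPM in Control and at 10.7, 11.4 and 14.9 CPM with IL-33, and its groups overlapped.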
